A study of Caenorhabditis elegans with 2 samples.

Results

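The genes described here are the 42 genes listed for glycolysis, gluconeogenesis, pyruvate dehydrogenase, the tricarboxylic acid (TCA) cycle and the glyoxylate cycle of the nematode Caenorhabditis elegans, with the glutamate dehydrogenase gene gdh-1. They were chosen by name from their place in these pathways, with earlier results of these data known. All 42 were found among the 19973 protein-coding genes of the annotation. Each was examined for binding of the transcription factor MDL-1, measured as peaks of sequenced DNA after chromatin immunoprecipitation (ChIP-seq) in 2 biological replicates of 1 group. Both replicates were whole L1 larvae, males and females pooled, of strain OP106, which carries unc-119(ed3) and the integrated transgene wgIs106 expressing MDL-1 fused to eGFP. The protein measured was therefore the tagged transgene product, and whole animals do not show in which tissue a site was bound. No untagged or treated group was analysed, and the lists carry no read counts, so the sequencing depth is unknown.

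MDL-1 belongs to the MAD family of helix-loop-helix proteins. It pairs with MXL-1 and binds the E-box CACGTG, and its mammalian relatives act as repressors in the network that also holds MYC and MAX. Glycolysis turns glucose into pyruvate, pyruvate dehydrogenase turns pyruvate into acetyl-CoA, and the TCA cycle oxidises acetyl-CoA in mitochondria. The glyoxylate cycle, present in nematodes but absent from mammals, lets worms build carbohydrate from stored fat, and gluconeogenesis completes that route.

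MDL-1 peaks stood in the promoter windows of 20 of the 42 genes, of which 10 were TCA cycle genes, and the highest peak of the pooled and IDR lists, rank 3 in replicate 1 and rank 2 in replicate 2, lay downstream of gdh-1. The peaks counted are those of the authors' optimal list, thresholded by the irreproducible discovery rate (IDR) between replicates. A promoter window reached 1000 bp upstream and 200 bp past the 5' end, and the 20 genes were 47.6% of the members. The same window held a summit at 12.8% of all protein-coding genes and at 16.1% of those with a letters-number symbol. From 2000 bp upstream to 4000 bp past the 5' end, called the wide window here, 28 of 42 genes (66.7%) had a summit, against 23.1% of all genes. When each summit was given to the nearest protein-coding 5' end alone, 23 of 42 (54.8%) had one, against 13.5%. Among genes with a letters-number symbol these 2 shares were 26.2% and 16.4%. The pathway groups below are set beside all genes only. No test between conditions exists in a series of 1 group, and genes are not replicates, so these shares describe these lists.

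**Figure D1:**
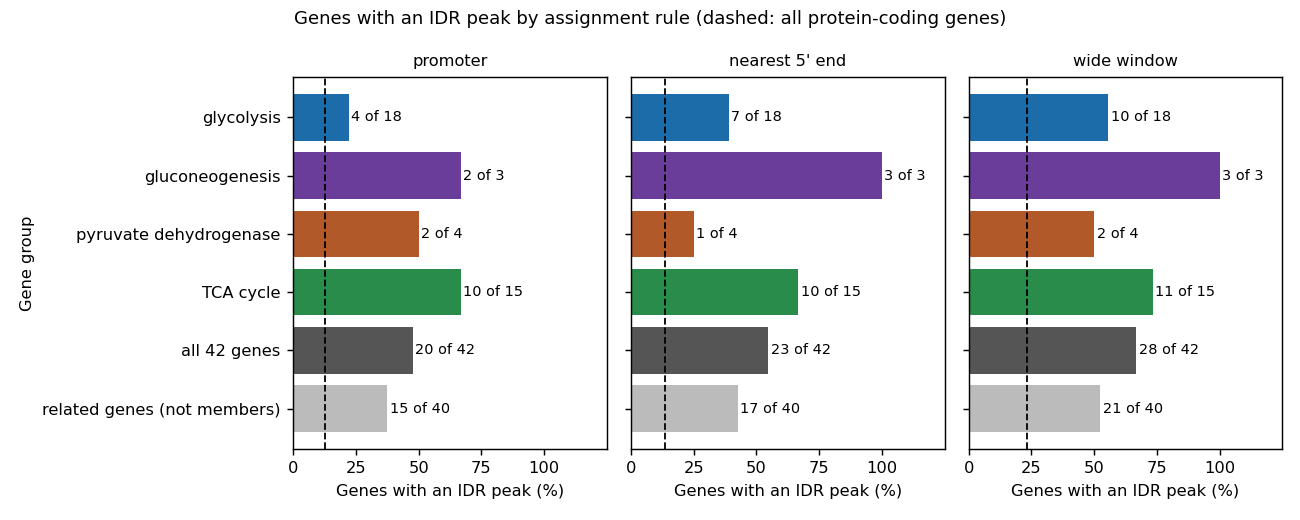
Percentage of genes with an IDR peak in each pathway group, under the promoter window, the nearest 5' end and the wide window. Bars carry the count of genes, the grey bar is the list of 40 related genes that are not members, and the dashed line is the share of all protein-coding genes. The bar of all 42 genes lies to the right of the dashed line in each panel, at 20, 23 and 28 genes.

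Sequences at the summits are shown for the peaks that carried the strongest signal or the E-box, where a member had the nearest 5' end. They are from WBcel235, the sequence of ce11, on the plus strand from 5' to 3', and capitals mark CACGTG. The first group holds the E-box: 50 bp to either side of the summit at gdh-1 and the downstream mdh-2 peak, and 30 bases around the site at hxk-3 and aldo-2, where the window overlaps a UTR.
gdh-1, chrIV:11956451-11956551: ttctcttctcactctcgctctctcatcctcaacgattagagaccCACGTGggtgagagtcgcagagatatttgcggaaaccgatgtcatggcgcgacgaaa
hxk-3, chrIV:1497686-1497715: tcttcaattctgCACGTGcggactgccctt
mdh-2, chrIII:6606269-6606369: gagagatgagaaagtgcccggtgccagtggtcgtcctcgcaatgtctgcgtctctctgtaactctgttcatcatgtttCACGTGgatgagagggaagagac
aldo-2, chrIII:5877067-5877096: gagaaggatagtCACGTGgatttgaatcat
At gdh-1 the centre of the E-box lay 3.5 bp from the summit. The distances were 22.5 bp at hxk-3, 30.5 bp at mdh-2 and 34.5 bp at aldo-2.

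The second group holds the 4 highest such peaks without CACGTG, which stood in the promoter windows of dld-1, cts-1, sucl-1 and mdh-2. They are shown because most of the strong peaks of these pathways were of this kind.
dld-1, chrIV:14464217-14464317: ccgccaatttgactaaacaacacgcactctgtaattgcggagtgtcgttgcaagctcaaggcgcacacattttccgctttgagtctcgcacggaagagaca
cts-1, chrIII:10217096-10217196: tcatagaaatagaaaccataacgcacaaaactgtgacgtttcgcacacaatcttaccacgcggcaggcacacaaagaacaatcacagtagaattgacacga
sucl-1, chrX:14753656-14753756: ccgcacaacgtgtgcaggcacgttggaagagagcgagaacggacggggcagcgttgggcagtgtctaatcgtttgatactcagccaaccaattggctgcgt
mdh-2, chrIII:6608265-6608365: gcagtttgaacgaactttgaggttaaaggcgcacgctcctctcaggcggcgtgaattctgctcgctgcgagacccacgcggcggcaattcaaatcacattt

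The 28 genes shared 42 different IDR peaks, because some windows overlap. Of these, 29 had a member as the nearest protein-coding 5' end and 13 another gene. One peak was found at 16 genes, 2 at 9, 3 at 2 (pck-2 and suca-1) and 4 at gpd-2, and 14 genes had none. The pooled score, which is the authors' own value for each peak and has no stated scale, ran from 32.8 to 679.7 over the 42 peaks with a median of 62.8. Over all 3870 IDR peaks the median was 58.8. In the promoter window the highest score per gene had a median of 88.0 over the 20 member genes, against 63.5 over the 2560 genes of the genome with such a peak. In the wide window the medians were closer, at 67 over the 28 member genes and 64.7 over 4614 genes of the genome. Summits lay in intergenic sequence at 22 of the 42 peaks, in introns at 8, in 5' UTRs at 6, in exons of non-coding RNA genes at 3, in coding exons at 2 and in a 3' UTR at 1. The nearest tRNA gene to any of them was 4107 bp away.

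**Figure D2:**
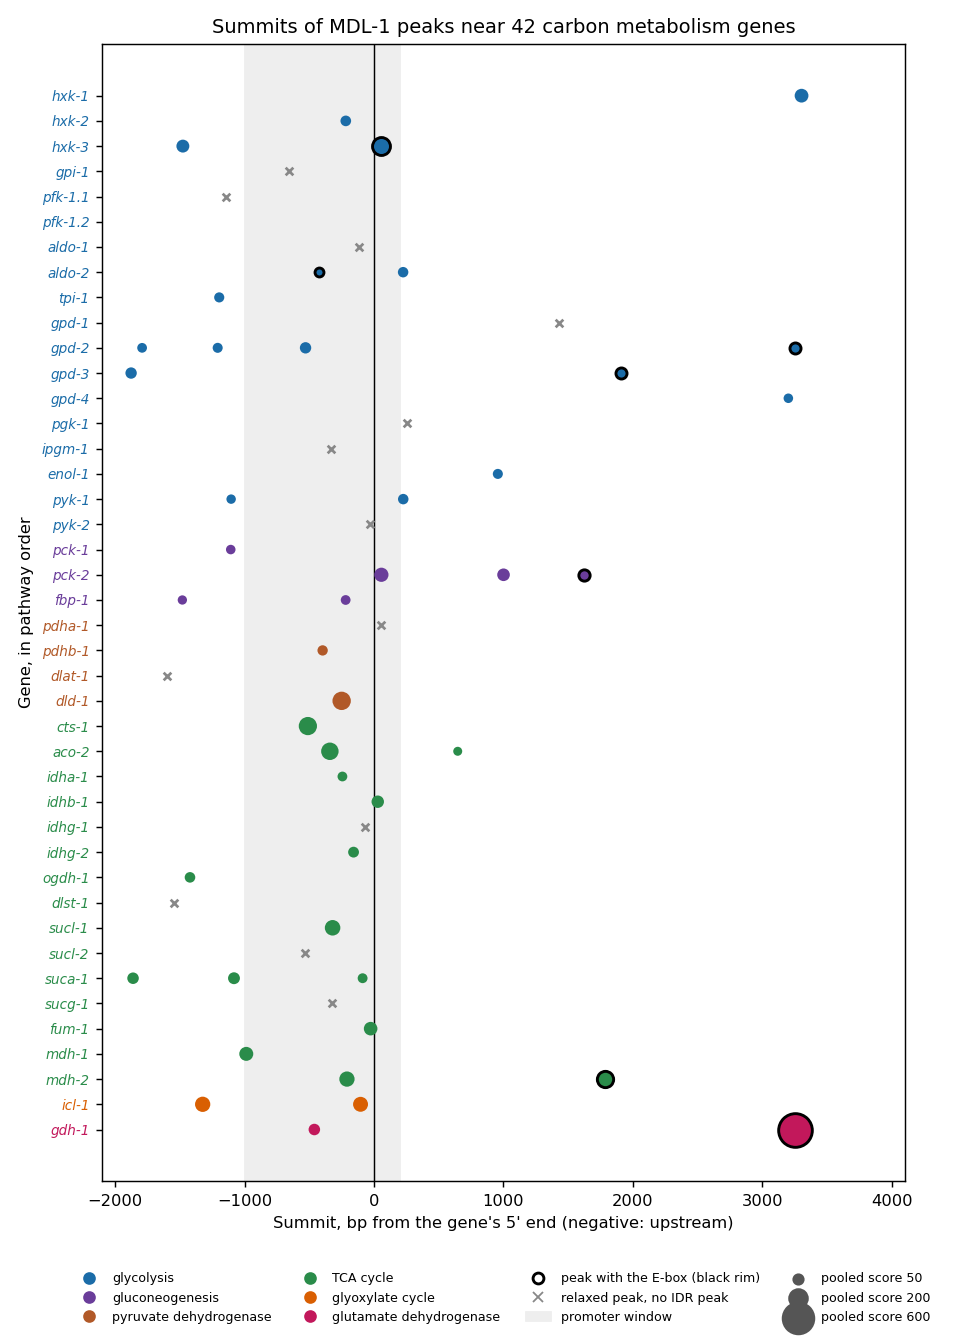
Position of each IDR peak summit (x axis, bp from the gene's 5' end) for the 42 genes in pathway order, with the area of a point growing with the pooled score. Black rims mark peaks with CACGTG within 50 bp, grey crosses the highest relaxed peak of genes with no IDR peak, and the shaded band is the promoter window. Of the 15 TCA cycle genes, 10 have a point in the band, against 12.8% of all protein-coding genes with a summit in that window.

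Ranks in the replicates describe how far these scores varied, with rank 1 the highest score in a replicate's own list of 30000 relaxed peaks. The IDR list was made from these same replicates, so the spread given here is not independent of it. At each member gene with an IDR peak, the highest peak had the same rank in the IDR and pooled lists. The IDR list also kept peaks that 1 replicate lacked, as at gpd-4, so these peaks were not each selected for agreement. Of the 42 peaks, 40 (95.2%) had a summit within 100 bp in both replicates, against 94.5% of all IDR peaks. Among the 3870 highest peaks of both replicates, 34 of 42 (81%) were matched, against 67.8%. The larger of the 2 ranks was a median of 1.57 times the smaller over the 40 peaks. Over the 3657 IDR peaks matched in both replicates it was 1.66, and 90% of these lay within 3.77. Unmatched peaks have no such ratio. Spearman's rho of the ranks was 0.683 over the 40 peaks and 0.603 over all 3657 matched IDR peaks, as a description of sites that share 2 libraries. Neighbours in the order of scores are therefore not told apart where their ranks differ by less than this.

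**Figure D3:**
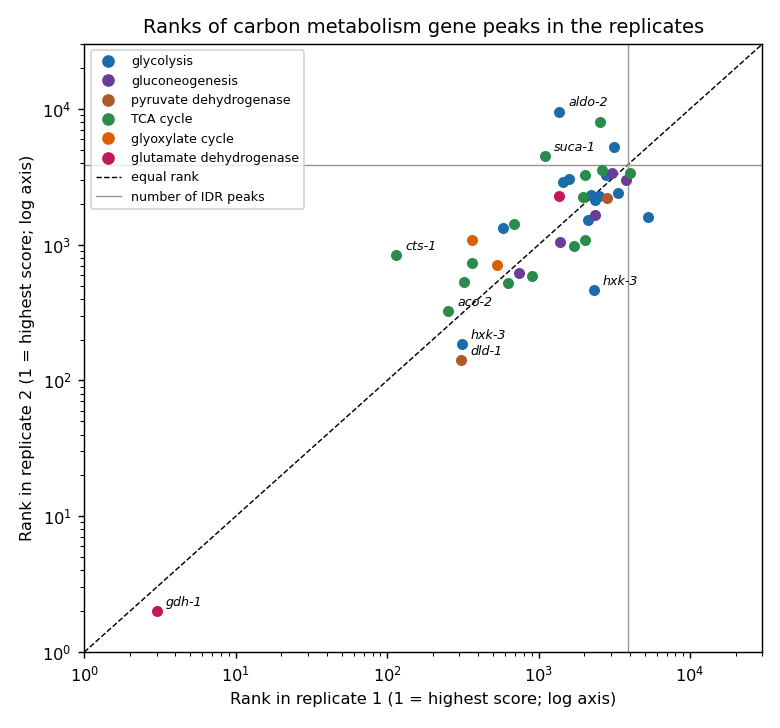
Rank in replicate 1 (x axis) against rank in replicate 2 (y axis), both on log axes, for the 40 IDR peaks near the 42 genes that were matched in both replicates. The dashed line is equal rank and the grey lines mark rank 3870. The gdh-1 peak stands apart at ranks 3 and 2, and the rank number of the cts-1 peak is 7.27 times larger in replicate 2.

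Hexokinase, which phosphorylates glucose, is encoded by 3 listed genes. Each had an IDR peak in the wide window, against 23.1% of all genes, at a different place. In the promoter window 2 had one, against 12.8%, and 2 were the nearest 5' end of one, against 13.5%. The hxk-3 gene (WBGene00022306, chromosome IV, 1497626 to 1510027) had a peak at 1497603 to 1497768 with its summit in the 5' UTR, 52 bp past the 5' end, and the E-box shown above. That peak scored 181 in the pooled list, 97.6 in replicate 1 (rank 310) and 85.4 in replicate 2 (rank 184). It was the highest promoter peak of any glycolysis gene. A second hxk-3 peak lay 1477 bp upstream with a score of 86.5, ranks of 2306 and 461, and the nearer 5' end of npp-20. At hxk-1 the peak (score 100.3, ranks 580 and 1333) lay in an intron 3304 bp past the 5' end and 1591 bp upstream of another annotated transcript start of the gene. The hxk-2 peak (53.7, ranks 2354 and 2116) lay 218 bp upstream, but the 5' end of the kinase gene cdk-9 was nearer, at 199 bp.

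The glucose-6-phosphate isomerase gene gpi-1 and both phosphofructokinase genes, pfk-1.1 and pfk-1.2, had no IDR peak in the wide window. The highest relaxed peak scored 12.8 at gpi-1, 653 bp upstream, and 24.0 at pfk-1.1, 1141 bp upstream. Neither replicate had a summit within 100 bp of the gpi-1 peak. The aldolase gene aldo-2 had 2 IDR peaks, while its paralogue aldo-1 had none and a highest relaxed peak of 17.0, 116 bp upstream. Replicate 1 lacked that aldo-1 peak within 100 bp, but among its 3870 highest peaks it had another summit in the aldo-1 promoter window. The highest rank in the aldo-1 wide window was 3519 in replicate 1 and 7272 in replicate 2. The higher aldo-2 peak, 225 bp past the outermost 5' end and 70 bp past another transcript start, scored 51.4. The replicates disagreed there, with a score of 43.4 and rank 1371 in replicate 1 against 8.62 and rank 9541 in replicate 2. The E-box peak of aldo-2, 422 bp upstream in a coding exon of mig-21, scored 32.8, just above the end of the IDR list at 32.7, with ranks of 3118 and 5206. Triose-phosphate isomerase (tpi-1) had 1 peak, 1196 bp upstream, scoring 47.0 with ranks of 2206 and 2329.

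Of the 4 genes for glyceraldehyde-3-phosphate dehydrogenase, gpd-2 and gpd-3 lie together on chromosome X behind mai-1, with which they form an operon. The gpd-2 promoter peak was in an intron of mai-1, 529 bp upstream of gpd-2, and scored 63.4 with ranks of 2122 and 1518. Further summits lay 1208 bp and 1792 bp upstream of gpd-2, the second only 108 bp from the 5' end of mai-1, with scores of 45.7 and 42.4. Downstream of both genes, 658 bp past the end of gpd-3, an E-box peak scored 59.1, and its nearest 5' end was that of gpcp-1. On chromosome II, gpd-4 had 1 peak 3202 bp past its 5' end (39.9), nearest to F33H1.4, which replicate 1 lacked within 100 bp. Elsewhere in the gpd-4 wide window replicate 1 had a summit of rank 2211. The gpd-1 gene had no IDR peak, and its highest relaxed peak scored 30.7. Reads from near-identical copies of these genes could be placed on more than 1 copy. Not given in the sources used here is how such reads were treated.

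Phosphoglycerate kinase (pgk-1) and mutase (ipgm-1) had no IDR peak. Their highest relaxed peaks scored 18.9, 255 bp past the 5' end of pgk-1, and 15.6, 331 bp upstream of ipgm-1. Replicate 1 lacked the ipgm-1 peak within 100 bp. Enolase (enol-1) had 1 IDR peak in an intron 957 bp past the outermost 5' end, 152 bp upstream of another annotated transcript start. Its score was 46.0 and its ranks were 2788 and 3260. The pyruvate kinase gene pyk-1 had peaks 226 bp past and 1104 bp upstream of its 5' end, with scores of 51.5 and 38.6. Its paralogue pyk-2 missed the list narrowly. A relaxed peak 29 bp upstream of pyk-2 scored 32.4, with rank 3132 in replicate 2 but 16380 in replicate 1. In all, 4 of 18 glycolysis genes (22.2%) had a promoter summit, against 12.8% of all genes. By nearest 5' end it was 7 (38.9%), against 13.5%, and in the wide window 10 (55.6%), against 23.1%.

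All 3 gluconeogenesis genes had an IDR peak in the wide window, against 23.1% of all genes, and 2 had one in the promoter window, against 12.8%. Phosphoenolpyruvate carboxykinase commits oxaloacetate to glucose synthesis. Its gene pck-2 (chromosome I, 7866136 to 7872100) had 3 peaks. The highest, in the 5' UTR 57 bp past the 5' end, scored 108, with ranks of 736 and 618. The others lay 1001 bp and 1626 bp past it, with scores of 81.7 and 62.3, and were nearer to the 5' end of R11A5.6, a gene within the window. The last of them held CACGTG. The paralogue pck-1 had a single peak 1107 bp upstream (39.9, ranks 3785 and 2988). The fructose-1,6-bisphosphatase gene fbp-1 had peaks 219 bp and 1481 bp upstream with scores of 42.6 and 37.2, and replicate 2 lacked the second.

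Among the pyruvate dehydrogenase genes, that of the E3 subunit had the highest score. Dihydrolipoamide dehydrogenase (dld-1, WBGene00010794, chromosome IV, 14464517 to 14469136) is shared with the 2-oxoglutarate dehydrogenase complex. Its peak at 14464186 to 14464349, 250 bp upstream, scored 191, with 98.1 in replicate 1 (rank 307) and 96.2 in replicate 2 (rank 141). The summit lay in an exon of the non-coding RNA gene LLC1.120. The E1 beta gene pdhb-1 had a promoter peak of 49.5, but it was 44 bp from the 5' end of dyf-3. The E1 alpha gene pdha-1 and the E2 gene dlat-1 had no IDR peak, and their highest relaxed peaks scored 13.9 and 17.4, neither of which replicate 1 had within 100 bp.

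The TCA cycle genes had promoter summits at 10 of 15 (66.7%), against 12.8% of all genes. By nearest 5' end it was also 10 of 15, against 13.5%, but not the same 10. Here ogdh-1 was called and mdh-1 was not, and aco-2 was called only by the lesser of its 2 peaks. In the wide window 11 of 15 (73.3%) had a summit, against 23.1%. The difference from glycolysis was not tested. Citrate synthase (cts-1, WBGene00000833, chromosome III, 10214771 to 10216635) opens the cycle, and its peak at 10217024 to 10217256, 511 bp upstream, scored 188. The replicates placed it differently, with 148 and rank 115 in replicate 1 and 43.4 and rank 836 in replicate 2. Aconitase (aco-2) had a peak of 171, with ranks of 253 and 322, 341 bp upstream, and this summit was only 10 bp past the 5' end of the elongation factor gene eef-1B.1. A lesser aco-2 peak (33.6) lay in an intron, 67 bp upstream of another transcript start, with ranks of 2528 and 7993.

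The genes for subunits of NAD-dependent isocitrate dehydrogenase had scores on both sides of the end of the IDR list. Their pooled ranks ran from 1222 at idhb-1 to 4406 at idhg-1. The idhb-1 peak, 29 bp past the 5' end, scored 78.9 with ranks of 1700 and 971. The idhg-2 peak (158 bp upstream) scored 55.9, and the idha-1 peak (244 bp upstream) scored 42.8. No IDR peak stood at idhg-1, but a relaxed summit 66 bp upstream held CACGTG and scored 29.2. Its rank was 3537 in replicate 1 and 10835 in replicate 2. For 2-oxoglutarate dehydrogenase, ogdh-1 had a peak 1422 bp upstream (52.8, ranks 2028 and 3262). The E2 gene dlst-1 had none, and its highest relaxed peak scored 25.4 at 29 bp from the 5' end of sna-1.

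Succinyl-CoA ligase, which makes nucleotide triphosphate in the cycle, had peaks at 1 gene of each subunit type. The alpha gene sucl-1 (chromosome X) scored 132 at 320 bp upstream, with ranks of 364 and 727, while sucl-2 had none and a highest relaxed peak of 19.1, 536 bp upstream. Of the beta genes, suca-1 had summits 88 bp, 1082 bp and 1862 bp upstream with scores of 43.8, 70.6 and 65.5, and the last was nearer to acbp-3. The other beta gene, sucg-1, had a highest relaxed peak of 8.66, which replicate 2 lacked within 100 bp. Fumarase (fum-1) had a peak 26 bp upstream that scored 97.2, with ranks of 683 and 1412.

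Malate dehydrogenase genes both had promoter peaks, against 12.8% of all genes. The mitochondrial gene mdh-2 (WBGene00003162, chromosome III, 6606544 to 6608106) scored 127 at 209 bp upstream, with 68.5 in replicate 1 (rank 627) and 54.2 in replicate 2 (rank 518). A higher mdh-2 peak, scoring 147 with ranks of 321 and 531, lay 225 bp past the end of the gene and held the E-box shown above. Its distance from the 5' end of mdh-2 was 1787 bp, and no other protein-coding 5' end was nearer. The cytosolic gene mdh-1 had a peak of 104 with ranks of 906 and 592, but it lay 987 bp upstream, and the 5' end of F46E10.3 was nearer at 784 bp.

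The glyoxylate cycle gene icl-1 (WBGene00001564, chromosome V, 724332 to 728004) encodes 1 protein with isocitrate lyase and malate synthase activity. Its promoter peak, 104 bp upstream, scored 121, with 73.8 in replicate 1 (rank 532) and 46.7 in replicate 2 (rank 705). A second peak of 127, 1324 bp upstream, lay in an intron of the chemoreceptor gene srh-2. Its ranks were 362 and 1082.

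The highest peak near any member, and in the whole pooled and IDR lists, lay downstream of gdh-1 (WBGene00014095, chromosome IV, 11953249 to 11955541), which links glutamate to the TCA cycle. The summit at 11956501 was 960 bp past the end of gdh-1 and 24 bp into the non-coding RNA gene ZK829.13. It scored 395 in replicate 1 (rank 3) and 291 in replicate 2 (rank 2). The 5' end of gdh-1 lay 3252 bp away and that of tgt-1, which is transcribed towards gdh-1, 3303 bp away, so a difference of 51 bp made gdh-1 the nearest. In its own promoter, 461 bp upstream, gdh-1 had a peak of 65.4 with ranks of 1362 and 2282. Just outside the wide window, at 4049 bp, another IDR peak scored 97.4.

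**Figure D4:**
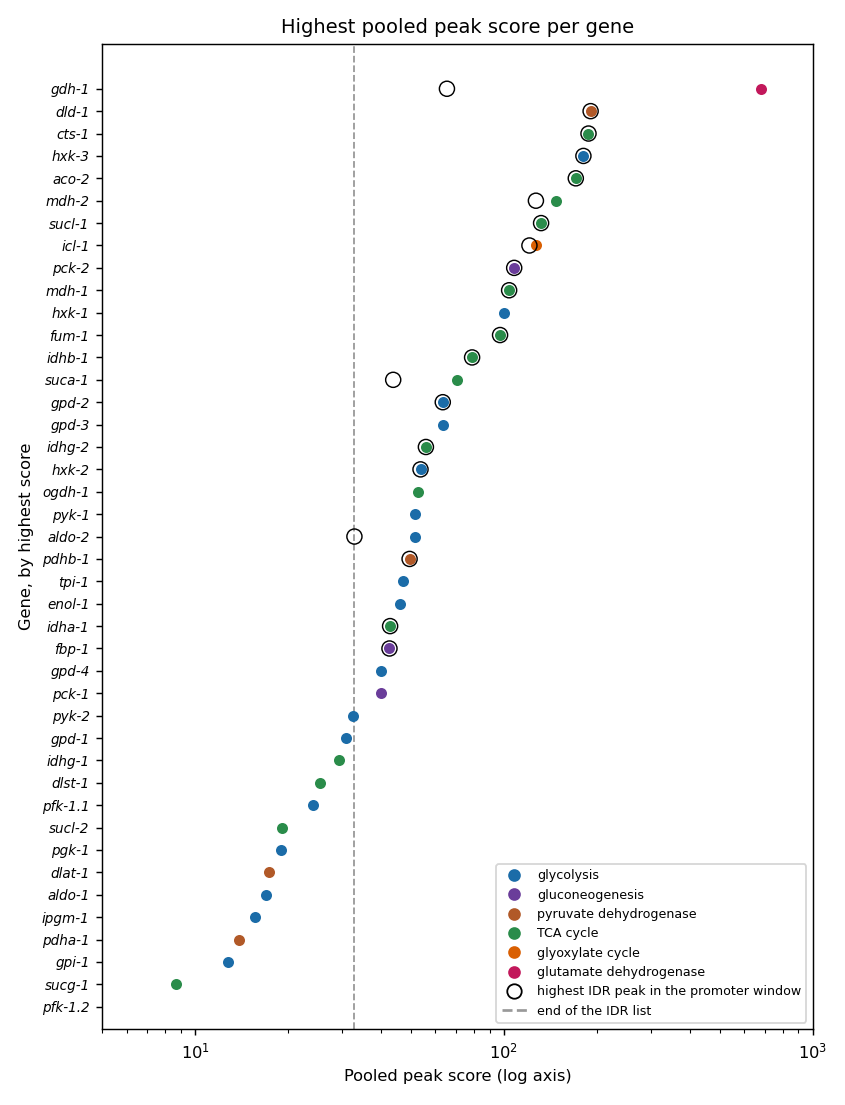
Highest pooled peak score (x axis, log scale) in the wide window of each gene, in order of score. Filled points are coloured by pathway, open circles mark the highest IDR peak in the promoter window, and the dashed line is the end of the IDR list at 32.7. Of the 28 genes to the right of the line, gdh-1 has a downstream peak far above its promoter peak.

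After gdh-1, the next 4 genes by pooled score were dld-1 (191), cts-1 (188), hxk-3 (181) and aco-2 (171). Their order was not the same in the replicates. In replicate 1 cts-1 came first of the 4, and in replicate 2 dld-1 did and cts-1 came last. At 4 of the 40 matched peaks the ranks differed by more than 3.77 times, namely at cts-1 (7.27 times), the higher aldo-2 peak (6.96), the upstream hxk-3 peak (5 times) and the farthest suca-1 peak (4.07).

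Genes without an IDR peak still had weak ones. Of the 14, 13 had a relaxed pooled summit in the wide window, so that 41 of 42 genes had 1 at this level, against 70.2% of all genes. Their highest scores ran from 8.66 at sucg-1 to 32.4 at pyk-2. The pfk-1.2 gene was the exception: its window held no summit in the pooled list or in replicate 1 and 1 in replicate 2, at rank 14312. Each relaxed list ends at 30000 peaks, so a missing peak is only below that end.

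The E-box stood at these peaks at a share close to that of the whole list. CACGTG, which reads the same on both strands, lay within 50 bp of 6 of the 42 summits (14.3%), against 13.2% of all IDR peaks. The 6 were those of gdh-1, hxk-3, mdh-2 downstream, pck-2, the region past gpd-3, and aldo-2. The looser pattern CANNTG, which includes CACGTG, was near 20 of 42 (47.6%), against 49.9%. Conversely, the wide windows of the 42 genes held 70 CACGTG sites, at 38 of the genes, and 6 of these sites (8.57%) had an IDR summit within 50 bp, against 3.04% of the 13139 sites in the windows of all protein-coding genes. With the relaxed pooled list it was 12 of 70 (17.1%), against 8.13%. The member windows also held summits of any kind more often. An IDR summit was in 66.7% of them against 23.1% of all genes, and a relaxed one in 97.6% against 70.2%. Whether the sites were at summits more often than this alone would give was not tested. The gpi-1 window held 12 of the 70 sites, and none of them was at an IDR summit.

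Of the hexamers that differ from CACGTG in 1 letter, only CACGCG and CACGTT were looked for, after the printed sequences had been seen. Both stand in printed sequences, so the member shares are not independent of that choice. CACGCG, on either strand within 50 bp of the summit, was found at 3 of the 42 peaks (7.14%), against 9.33% of all IDR peaks. The 3 were cts-1, the mdh-2 promoter and the upstream icl-1 peak. CACGTT was found at 6 of 42 (14.3%), at hxk-1, the upstream hxk-3 peak, sucl-1, fum-1 and the suca-1 peaks 1082 bp and 1862 bp upstream, against 6.41%. These are descriptions of letters in a window, not of bound sites.

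Each replicate alone gave the same number of promoter calls. Among the 3870 highest peaks of replicate 1, 20 of 42 genes had a promoter summit, against 12.3% of all genes, and in replicate 2 it was 20 against 12.4%. In both replicates 17 of 42 (40.5%) were called, against 9.58%. In the wide window the counts were 31 in replicate 1, against 22.7%, and 29 in replicate 2, against 22.8%.

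Other genes of central carbon metabolism, taken from a list of 43 names of which 40 were in the annotation, had promoter summits at 15 of 40 (37.5%), against the 12.8% of all genes. The highest were at sdha-1, a succinate dehydrogenase subunit gene (194, ranks 219 and 205), the trehalase gene tre-1 (147, 303 and 678) and the pyruvate dehydrogenase kinase gene pdhk-2 (124, 792 and 386). Glycogen genes followed, with 119 at the debranching enzyme gene agl-1 and 106 at the glycogen synthase gene gsy-1. Then came the succinate dehydrogenase gene mev-1 (95.7) and the aminotransferase gene got-1.2 (85.0), the isocitrate dehydrogenase gene idh-2 (69.1), got-2.2 (64.3) and sdhd-1 (45.9). At mev-1, idh-2 and sdhd-1 the 5' end of a neighbouring gene was nearer to the summit, and replicate 2 lacked the sdhd-1 peak within 100 bp. The pentose phosphate genes gspd-1, tkt-1, tald-1 and rpia-1 and the lactate dehydrogenase gene ldh-1 had none in the promoter or the wide window. In the wide window 21 of the 40 (52.5%) had a summit, against 23.1% of all genes.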

How the data were processed

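ChIP-seq of eGFP-tagged MDL-1 was deposited for 2 biological replicates of L1 larvae, which form 1 group. Fragments of 150 to 350 bp were selected, per the labels. Per the deposited file inventories, the authors called relaxed peaks on each replicate and on the pooled replicates in ce11 and made an optimal IDR list from these. Not given in the sources used here were the aligner, caller, versions and IDR threshold. The deposited score of each peak is the authors' caller's own value, with no stated scale. It was used to rank peaks and to give medians within a list. Scores of the 2 replicates are printed side by side but share no stated scale, so only their ranks can be compared. The ce10 lists, alignments, signal tracks and control were not used here.

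Summits of the ce11 lists (3870 IDR peaks, 30000 in each relaxed list) were set against genes of Ensembl release 115 on WBcel235, the same sequence as ce11. Coordinates are 1-based. The 5' end is the outermost one of a gene. A replicate match is the nearest summit within 100 bp. CACGTG was counted where all bases lay within 50 bp of the summit. Counts of the pathway groups and of the related list are set beside the share of all protein-coding genes or of all IDR peaks, with no test, since 1 group allows none between conditions. Replicates are biological per the labels, and depth is unknown.

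The 42 genes and the related list were chosen with earlier results of these data known. All members are named, with every IDR peak in the wide window or, with none, the highest relaxed peak where there was one, and up to 10 related genes by score. The background of genes with a letters-number symbol was added after values were seen. Promoter-window, nearest-end and motif counts were checked with planted summits, of which 200 of 200 were recovered in each. The summits were planted within the promoter window or near CACGTG on chromosome X, and the wide window was not checked this way. Alternatives covered other peak sets, windows, 5' ends, distances and each replicate left out. Python 3.11.15 with numpy 2.4.6 was used.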

Additional observations from a re-analysis of the deposited data

How the results depend on the processing

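No paired analysis was possible because the series has 1 group. Among the IDR peaks above the median score, a shorter list by construction, counts were lower: 16 of 42 genes had a summit in the wide window (all genes 13.1%), 13 in the promoter window (7.16%) and 13 were the nearest 5' end (7.31%). With a pooled list of double the IDR length, 23 of 40 related genes had a promoter summit in place of 15, while the share of all genes rose from 12.8% to 20.6%. CACGTG within 25 bp instead of 50 bp was found at 3 peaks (7.14%, all IDR peaks 7.86%) instead of 6. Leaving out 1 replicate means taking the 3870 highest peaks of the other, as given above for each replicate alone. The wide window then held 29 to 31 genes (all genes 22.7% to 22.8%). The promoter window held 20 each time, and 11 to 15 of 40 related genes (all genes 12.3% to 12.4%). By nearest 5' end it was 24 to 25 genes (13.3% to 13.4%). CACGTG stood at 5 peaks without replicate 1 (10.4%, all peaks of that list 10.1%) and 6 without replicate 2 (13.6%, 14.3%). All other alternatives stayed within 1.5 times the reported counts. They were other windows, transcript 5' ends, 5' ends of every biotype, summit distances, CACGTG within 100 bp, and the members' longer pooled list. CACGTG within 100 bp was found at 9 peaks (21.4%, all IDR peaks 17.4%). With 5' ends of every biotype, 19 genes were called, and the share of all genes under that rule is not given here. Depth is unknown, so a gene without a peak is only below the end of a list.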

Other observations

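Several IDR peaks lay just beyond the wide windows. One of score 92.8 stood 2131 bp upstream of cts-1, nearest to rde-4, and one of 204 stood 4192 bp past the 5' end of idhb-1, nearest to sym-4. Just inside, the nearest to an edge were the peaks 1877 bp upstream of gpd-3 (63.4) and 1862 bp upstream of suca-1 (65.5).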
